A study of Homo sapiens with 12 samples.

Results

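RNA levels were followed for 9 genes that build and load HLA class I molecules, in 2 human multiple myeloma cell lines treated with dihydroartemisinin (DHA) or its solvent. The genes were the heavy chains HLA-B, HLA-C, HLA-E and HLA-F, the light chain B2M, the peptide transporter subunits TAP1 and TAP2, the loading chaperone TAPBP, and the transcriptional coactivator NLRC5. They were chosen by name for their roles, with earlier results of these data known. Each had 1 row among the 61806 rows of the LP-1 table and 1 row among the 19130 rows of the U266 table. Both lines, LP-1 and U266, are established cultures of malignant plasma cells, and the labels give them as wild type, from bone marrow, and kept in RPMI-1640 with fetal bovine serum. There were 4 groups of 3 libraries, which were LP-1 with DHA, LP-1 with DMSO, U266 with DHA and U266 with DMSO. Treatment lasted 12 h at the IC50 of DHA, with no concentration stated in the labels, and the control cells received the same amount of DMSO. DHA is the active metabolite of the artemisinin antimalarials. The labels do not say whether the libraries of a group came from separate cultures, so the p-values reflect spread between libraries that may be technical only.

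A class I molecule is a heavy chain bound to B2M and a short peptide. Peptides are cut in the cytosol by proteasomes, carried into the endoplasmic reticulum (ER) by the TAP1-TAP2 transporter, and fitted into the groove while tapasin, the product of TAPBP, holds the empty heavy chain beside the transporter. The finished complex goes to the cell surface, where CD8+ T cells read the peptide and natural killer cells read the heavy chain. NLRC5 is a transactivator of class I genes. It is recruited to a promoter module, made of W/S, X and Y boxes, that is bound by RFX, CREB/ATF and NF-Y proteins. In myeloma, free B2M in serum is a staging marker.

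In LP-1, 6 of the 9 genes fell with DHA. Of all genes tested there, 20.2% fell and 20.0% rose. HLA-B, HLA-C, HLA-E and B2M stood at 41.3% to 54.4% of their DMSO means, TAP1 at 55.3% and HLA-F at 22.3%, while TAP2, TAPBP and NLRC5 did not pass the test. The change in LP-1 minus that in U266 also passed for those 6 genes and was below 0 in each. Over all genes tested for it, 16.0% passed below 0 and 18.5% above. In U266, only B2M and TAPBP fell, to 84.4% and 88.0% of their DMSO means, and the heavy chains did not pass. Of all genes tested in U266, 19.6% fell and 21.1% rose. One DMSO library of LP-1 stood apart, and without it TAPBP and NLRC5 also passed in LP-1, as described below for each gene.

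Values are fragments per kilobase of transcript and per M fragments sequenced (FPKM), as deposited by the authors. Tests used limma on log2(FPKM + 1), keeping genes that reached 1 FPKM in 3 or more of a line's 6 libraries, and p-values adjusted by the Benjamini-Hochberg method over every gene kept. All 9 genes passed that filter in both lines. Changes are on the log2(FPKM + 1) scale, DHA over DMSO, which understates the change of low genes. In these bulk samples, fewer cells of a type and less RNA per cell cannot be told apart.

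Libraries held 14.3 to 17.5 M reads in genes with DHA and 13.4 to 15.4 M with DMSO in LP-1, and 10.3 to 16.4 M with DHA and 14.5 to 21.8 M with DMSO in U266, as recovered from the steps between low values. The median change over all tested genes was 0.01 in LP-1 and 0.02 in U266. Plasma cell markers summed to 931 to 943 FPKM with DHA and 996 to 1358 FPKM with DMSO in LP-1, and to 706 to 773 FPKM with DHA and 1045 to 1064 FPKM with DMSO in U266. The LP-1 markers did not move together. IRF4 averaged 252.8 FPKM with DHA and 79.9 FPKM with DMSO, and PRDM1 39.5 and 24.8 FPKM, while SDC1 averaged 5.16 FPKM with DHA and 30.9 FPKM with DMSO, CD38 18.3 and 36.6 FPKM, and MZB1 203.7 and 332 FPKM. CD38 and MZB1 were low in U266, at most 0.925 and 3.86 FPKM, and SLAMF7 was at most 0.14 FPKM in LP-1. The third U266 DHA library had 18399 genes above 0, against 14682 to 14992 in the other 5. The 4 B cell markers summed to 7.98 FPKM in it, against at most 1.41 FPKM in the others. T and NK cell markers summed to 4.428 FPKM in it, against at most 1.701 FPKM. Monocyte markers summed to 5.464 FPKM in it, against at most 1.511 FPKM. Stromal and endothelial markers were also highest in that library, while erythroid markers were not. The B cell marker MS4A1 was highest in the third U266 DMSO library. The third LP-1 DMSO library differed from the first and second in a way that went with gene length. Over 12222 genes its ratio to their mean had a Spearman correlation of -0.41 with exon length. The median log2 ratio was 0.22 for genes with up to 2370 exonic bases and -0.31 for genes with more than 6876. The ratio of the first DMSO library to the second had a correlation of -0.30 with exon length. For the DHA mean over the mean of the first and second DMSO libraries it was 0.17. The median log2 ratio there was -0.13 for genes with up to 2370 exonic bases and 0.10 for those with more than 6876. The DHA comparison therefore still went with length when the third DMSO library was left out. For the 9 genes, values without 1 of these libraries are given below where they change a call or its size, and list counts without them stand beside each list. Without the third LP-1 DMSO library, 3488 genes rose and 3257 fell of 12053 tested, against 2504 and 2523 of 12514 with all libraries. Without the third U266 DHA library, 2152 rose and 2142 fell of 10203, against 2203 and 2038 of 10422. List counts without a library are to be read against those numbers. The part that length had in the results was not tested. The deposited name of the third LP-1 DMSO library begins with Lp-1, like those of the LP-1 DHA libraries. Those of the first and second DMSO libraries begin with LP-1, and the labels do not explain the spelling. When the third is left out, spelling and treatment coincide in LP-1.

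The heavy chains form the peptide groove. HLA-B (ENSG00000234745, GRCh38 chromosome 6, 31269491 to 31357188, minus strand) presents peptides to T cells. In LP-1 it had 44.6, 47.8 and 49.6 FPKM with DHA, against 101, 83.3 and 159 FPKM with DMSO. All DHA libraries lay below all DMSO libraries, and the third DMSO library was the highest. HLA-B fell by 1.21 on the log2 scale (SE 0.229, limma adjusted p = 0.00808), and by 0.94 without the third DMSO library (limma adjusted p = 0.000416). In U266 it had 197, 171 and 169.7 FPKM with DHA, against 174, 188 and 177 FPKM with DMSO. The groups overlapped, with a change of -0.01 (95% confidence interval -0.15 to 0.14, limma adjusted p = 0.954).

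HLA-C (ENSG00000204525, chromosome 6, 31268749 to 31272130, minus strand) presents peptides and is the main ligand of inhibitory KIR receptors on natural killer cells. LP-1 libraries held 89.9, 89.0 and 87.7 FPKM with DHA, against 154, 145 and 192 FPKM with DMSO. Without any overlap between the groups, the DHA libraries were closer together than the DMSO libraries. HLA-C fell by 0.86 (SE 0.12, limma adjusted p = 0.00262), and by 0.74 without the third DMSO library. U266 libraries held 132, 120.2 and 119.7 FPKM with DHA, against 125, 128 and 128 FPKM with DMSO, and the groups overlapped. The change was -0.03 (95% confidence interval -0.15 to 0.08, limma adjusted p = 0.627).

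HLA-E (ENSG00000204592, chromosome 6, 30489467 to 30494205, plus strand) is a nonclassical heavy chain that shows leader peptides of other class I chains to the NKG2A receptor. Its LP-1 values were 54.1, 56.0 and 54.8 FPKM with DHA, against 109.6, 95.9 and 102 FPKM with DMSO. The groups were separate, and the third DMSO library sat between the first and second, at 0.995 of their mean. HLA-E fell by 0.89 (SE 0.0813, limma adjusted p = 0.000669), with the same value to 2 decimals without that library. Its U266 values were 66.9, 65.2 and 68.3 FPKM with DHA, against 68.4, 70.7 and 70.8 FPKM with DMSO. Every DHA library lay below every DMSO library by a small margin, and the change of -0.07 did not pass (95% confidence interval -0.16 to 0.03, limma adjusted p = 0.262).

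HLA-F (ENSG00000204642, chromosome 6, 29722775 to 29738528, plus strand), a nonclassical heavy chain that can reach the surface without peptide, was the lowest of the 4 heavy chains in both lines. In LP-1 it had 2.60, 2.46 and 2.64 FPKM with DHA, against 10.6, 9.66 and 14.2 FPKM with DMSO. These values rest on about 163 to 187 reads per DHA library and 568 to 950 per DMSO library. HLA-F fell by 1.79 (SE 0.14, limma adjusted p = 0.000371), and by 1.64 without the third DMSO library. In U266 it had 2.03, 1.44 and 1.99 FPKM with DHA, against 1.82, 1.86 and 1.52 FPKM with DMSO. The groups overlapped, at 90 to 142 reads with DHA and 96 to 176 with DMSO, and the change was 0.04 (95% confidence interval -0.27 to 0.35, limma adjusted p = 0.838).

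Summed over these 4 heavy chains, LP-1 held 193.7 ± 2.21 FPKM with DHA and 392 ± 68.3 FPKM with DMSO (SD, n = 3 each), so that DHA cells stood at 49.4%. U266 held 372 ± 23.1 FPKM with DHA and 378 ± 10.1 FPKM with DMSO, or 98.3%. Heavy chain genes are close in sequence, and the span of HLA-B overlaps that of HLA-C on the same strand. How reads that fit several heavy chains were assigned is not stated in the labels, so the split between HLA-B and HLA-C is less certain than their sum.

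**Figure D1:**
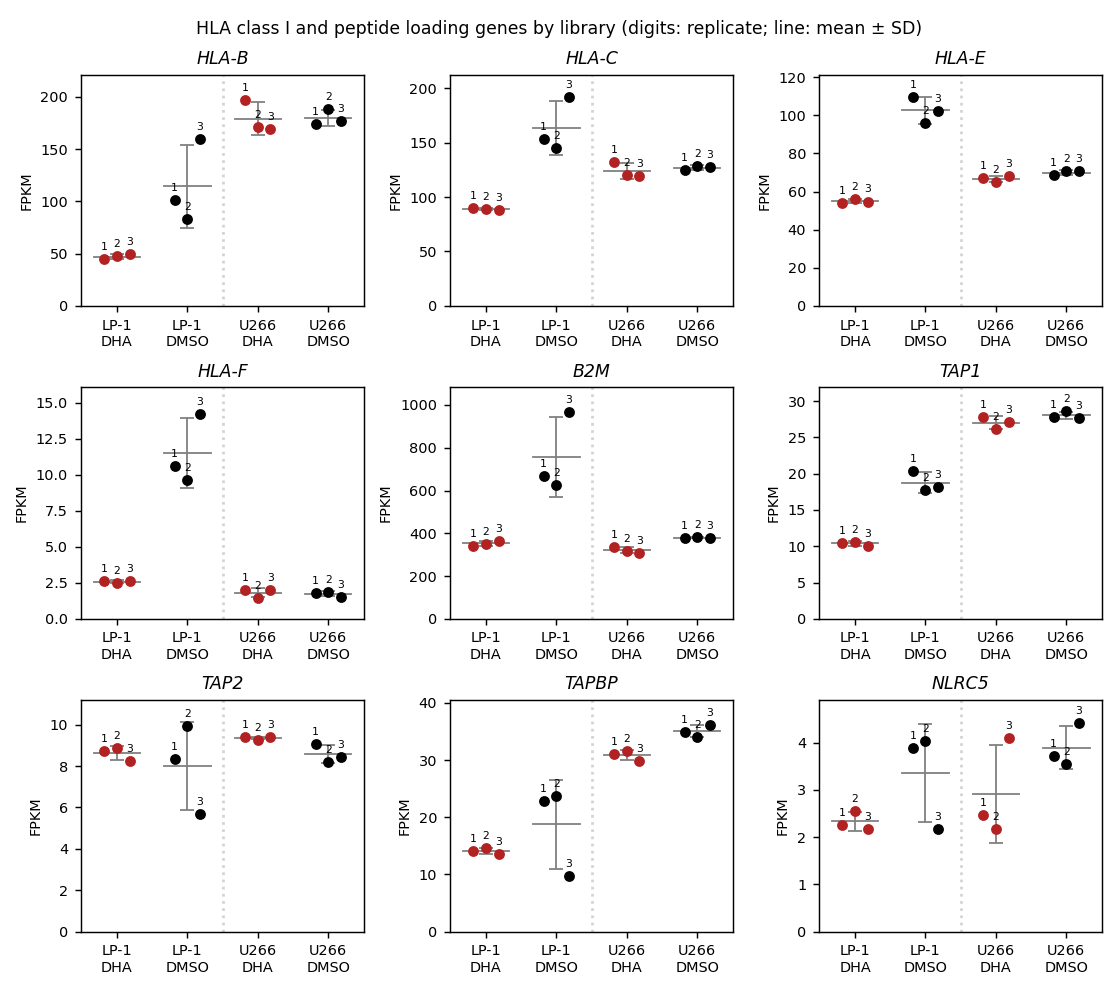
FPKM of each gene in every library, with DHA left of DMSO within each line and points numbered by replicate; gray lines give the mean and SD of 3 libraries, and each axis starts at 0. In LP-1 the DHA points of HLA-B, HLA-C, HLA-E, HLA-F, B2M and TAP1 lie below every DMSO point, while the third DMSO library is the highest for HLA-B and B2M and the lowest for TAP2, TAPBP and NLRC5.

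B2M (ENSG00000166710, chromosome 15, 44711487 to 44718877, plus strand) encodes the light chain that every class I heavy chain needs to leave the ER, and it lies outside the HLA region. LP-1 libraries held 343, 349 and 366 FPKM with DHA, against 670.0, 626 and 969 FPKM with DMSO. The groups were separate and the third DMSO library was the highest, at 1.5 times the mean of the other two. B2M fell by 1.07 (SE 0.181, limma adjusted p = 0.00529), and by 0.88 without that library. U266 libraries held 337, 316 and 308 FPKM with DHA, against 378, 384 and 377 FPKM with DMSO. The groups were separate here as well, and B2M fell by 0.24 (SE 0.0525, limma adjusted p = 0.00417), the only one of the 9 genes that passed in both lines with all libraries. Quantile normalization gave smaller values, with changes of -0.65 in LP-1 (limma adjusted p = 0.00196) and -0.12 in U266 (limma adjusted p = 0.041), and a difference of -0.53 between the lines (limma adjusted p = 0.00128).

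TAP1 and TAP2 each supply one chain of the transporter, and neither carries peptide alone. TAP1 (ENSG00000168394, chromosome 6, 32845209 to 32853978, minus strand) had 10.5, 10.6 and 10.1 FPKM with DHA in LP-1, against 20.4, 17.8 and 18.2 FPKM with DMSO. TAP1 was below every DMSO library in each DHA library and fell by 0.80 (SE 0.0808, limma adjusted p = 0.000922), or by 0.82 without the third DMSO library. In U266 TAP1 had 27.8, 26.1 and 27.2 FPKM with DHA, against 27.9, 28.6 and 27.6 FPKM with DMSO, and the change of -0.05 did not pass (95% confidence interval -0.16 to 0.06, limma adjusted p = 0.443). The span of TAP1 overlaps that of PSMB9, and the labels do not say whether counting used strand.

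TAP2 (ENSG00000204267, chromosome 6, 32821833 to 32838780, minus strand) passed in neither line. In LP-1 it had 8.73, 8.89 and 8.26 FPKM with DHA, against 8.35, 9.93 and 5.70 FPKM with DMSO. The groups overlapped because the DMSO libraries spanned the DHA values, and the change was 0.13 (95% confidence interval -0.30 to 0.55, limma adjusted p = 0.593). Without the third DMSO library, which was the lowest, it was -0.07 (limma adjusted p = 0.481). In U266 TAP2 had 9.40, 9.28 and 9.39 FPKM with DHA, against 9.07, 8.22 and 8.45 FPKM with DMSO. All DHA libraries lay above all DMSO libraries, but the change of 0.11 did not pass (limma adjusted p = 0.195).

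TAPBP (ENSG00000231925, chromosome 6, 33299694 to 33314387, minus strand) encodes tapasin. Its LP-1 values were 14.1, 14.7 and 13.5 FPKM with DHA, against 22.8, 23.7 and 9.76 FPKM with DMSO. The first and second DMSO libraries were above all DHA libraries and the third was below them, so the groups overlapped and the change of -0.30 did not pass (95% confidence interval -1.05 to 0.46, limma adjusted p = 0.481). Without the third DMSO library TAPBP fell by 0.69 (limma adjusted p = 0.00019). Its U266 values were 31.0, 31.6 and 29.9 FPKM with DHA, against 34.9, 34.0 and 36.1 FPKM with DMSO. Every DHA library was below every DMSO library, and TAPBP fell by 0.18 (SE 0.0485, limma adjusted p = 0.014), a call that was lost without the third DMSO library of U266 (-0.16, limma adjusted p = 0.0662).

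NLRC5 (ENSG00000140853, chromosome 16, 56989485 to 57083531, plus strand) was at low levels in every group. In LP-1 it had 2.26, 2.56 and 2.18 FPKM with DHA, against 3.89, 4.03 and 2.17 FPKM with DMSO. The third DMSO library lay just under the lowest DHA library, and the change of -0.36 did not pass (95% confidence interval -0.82 to 0.10, limma adjusted p = 0.17). Without that library NLRC5 fell by 0.57 (limma adjusted p = 0.00165). In U266 it had 2.46, 2.18 and 4.09 FPKM with DHA, against 3.72, 3.54 and 4.41 FPKM with DMSO. The third DHA library, the one with more genes above 0, lay within the DMSO range, and the change was -0.35 (95% confidence interval -0.72 to 0.02, limma adjusted p = 0.123). Without that library NLRC5 fell by 0.56 in U266 (limma adjusted p = 0.00283), and it also passed after TMM-style scaling (-0.41, limma adjusted p = 0.0294) and quantile normalization (-0.46, limma adjusted p = 0.0198).

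Of all genes tested in LP-1, 20.2% passed in the lower direction and 20.0% in the higher, against 6 and 0 of the 9 class I genes, whose median change was -0.86. In counts, 2504 genes rose and 2523 fell in LP-1. After rescaling without immunoglobulin and mitochondrially encoded genes these were 2859 and 1815, with a median of 0.13 over all genes, and the 6 class I genes still passed. All DHA libraries lay below all DMSO libraries in those 6 genes, and in 28.6% of all genes tested. Without the third DMSO library 8 of the 9 genes fell, while 3257 of 12053 genes tested did so. In U266, 19.6% of all genes tested passed in the lower direction and 21.1% in the higher, against 2 and 0 of the 9, whose median change was -0.05. Over all genes in U266, 2203 rose and 2038 fell, against 1442 and 2211 after TMM-style scaling. All DHA libraries lay below all DMSO libraries in 3 of the 9 genes in U266 and in 23.9% of all genes tested, which is close to the background.

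**Figure D2:**
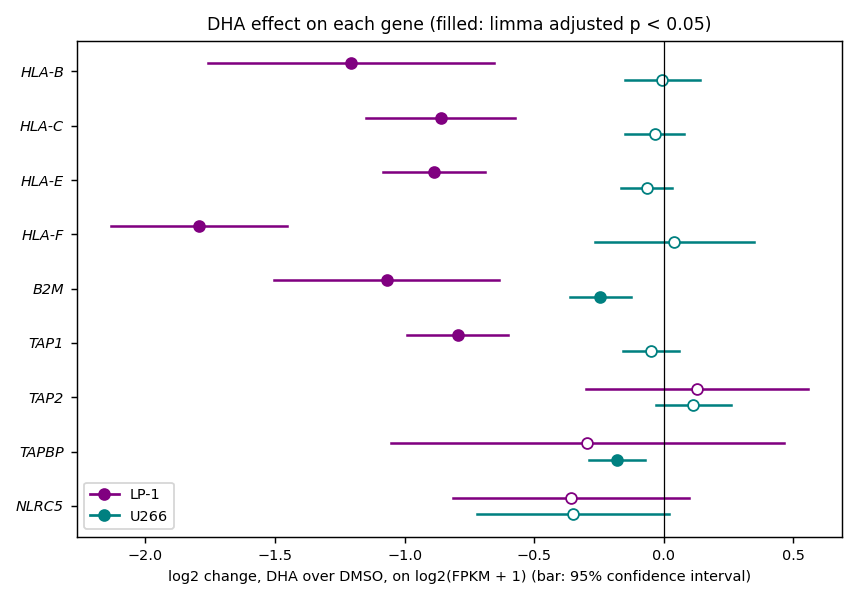
Change of each gene with DHA over DMSO, on the log2(FPKM + 1) scale, for LP-1 and U266; bars are 95% confidence intervals from limma and filled points have an adjusted p under 0.05. The 6 filled LP-1 points run from -0.80 for TAP1 to -1.79 for HLA-F, while in U266 the filled points are B2M at -0.24 and TAPBP at -0.18 and the other 7 intervals include 0.

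Leaving out the libraries one at a time showed which calls depended on a single library. HLA-B, HLA-C, HLA-E, HLA-F, B2M and TAP1 passed in LP-1 under each of the 6 omissions. TAPBP and NLRC5 passed in LP-1 only when the third DMSO library was left out. The third DMSO library stood at 0.42 of the mean of the other DMSO libraries for TAPBP, 0.548 for NLRC5, 0.624 for TAP2, 0.951 for TAP1 and 0.995 for HLA-E, and at 1.28 for HLA-C, 1.4 for HLA-F, 1.5 for B2M and 1.73 for HLA-B.

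**Figure D3:**
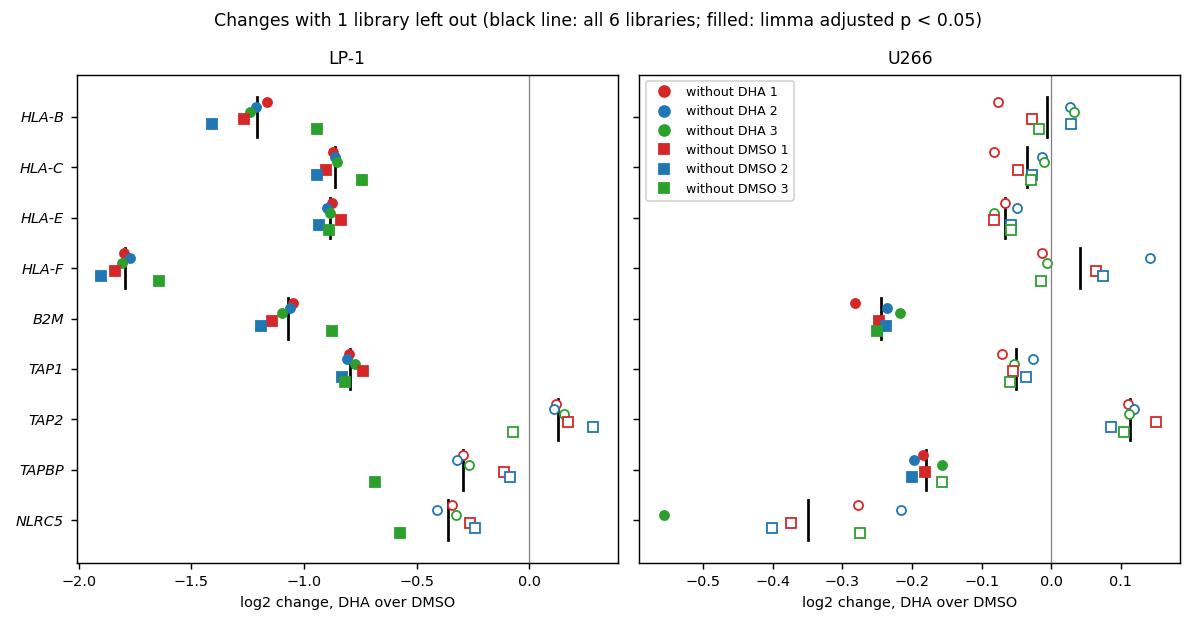
Change of each gene with DHA over DMSO, on the log2(FPKM + 1) scale, when 1 of the 6 libraries of a line is left out; the black line is the value with all 6, circles leave out a DHA library, squares a DMSO library, and filled symbols have a limma adjusted p under 0.05; the horizontal scales of the panels differ. In LP-1 the square for the third DMSO library stands apart for TAPBP at -0.69 and NLRC5 at -0.57, and in U266 the circle for the third DHA library stands apart for NLRC5 at -0.56.

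The difference between the lines was tested as the LP-1 change minus the U266 change in one limma fit of all 12 libraries. It passed for 6 of the 9 genes, all lower in LP-1, while 16.0% of the 8933 genes tested passed in that direction and 18.5% in the other. HLA-F differed by -1.83 (95% confidence interval -2.23 to -1.43, limma adjusted p = 3.13e-05), and HLA-B by -1.20 (limma adjusted p = 0.00335). HLA-C differed by -0.83 (limma adjusted p = 0.000734), HLA-E by -0.82 (limma adjusted p = 6.24e-05), B2M by -0.82 (limma adjusted p = 0.00622) and TAP1 by -0.74 (limma adjusted p = 0.000137). Those 6 passed under every omission of a library and every scaling tried, although over all genes 1653 were higher and 1431 lower in LP-1 as given here, against 2091 and 1015 after TMM-style scaling, 1897 and 1263 after quantile normalization and 1975 and 920 after rescaling. TAP2 differed by 0.01 (95% confidence interval -0.40 to 0.43), TAPBP by -0.12 (-0.84 to 0.60) and NLRC5 by -0.01 (-0.60 to 0.58), and none of the 3 passed. Without the third LP-1 DMSO library TAPBP differed by -0.51 and passed (limma adjusted p = 9.04e-05). The tables were made separately, so only the changes, each taken within its own table, are set against each other and not the levels.

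Per length, B2M was the highest of the 9 genes in all 4 groups, at 353 ± 12.0 FPKM with DHA and 755 ± 187 FPKM with DMSO in LP-1, and at 320.3 ± 14.8 FPKM with DHA and 379.5 ± 3.71 FPKM with DMSO in U266 (SD, n = 3 each). In U266 the next were HLA-B, HLA-C, HLA-E, TAPBP, TAP1, TAP2, NLRC5 and HLA-F, in the same order with DHA and with DMSO and with no overlap between neighbours. In LP-1 with DHA the order after B2M was HLA-C, HLA-E, HLA-B, TAPBP, TAP1, TAP2, HLA-F and NLRC5, where only the last 2 overlapped. In LP-1 with DMSO, HLA-C, HLA-B and HLA-E came after B2M, and HLA-B overlapped both neighbours. TAP1, TAPBP, HLA-F and TAP2 followed with overlapping neighbours, and NLRC5 was lowest. The U266 values gave whole reads with the annotated exon lengths for 7 of the 9 genes, and with 6089 bases for B2M and 4578 for TAP1. Each of the 9 lengths was above that of the longest principal transcript, by an unequal margin. They were 6089 against 1705 bases for B2M, 4342 against 1635 for HLA-F, 5056 against 1888 for TAPBP and 2975 against 2601 for HLA-E. The order of levels therefore depends in part on the lengths used.

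Promoter sequences were taken from RefSeq for GRCh38.p14, as windows from 250 bases before to 50 after the annotated start; 7 of the 9 genes had one. The 250 bases before the start are shown for HLA-B, B2M and TAP1, which fell in LP-1, and for TAP2 and TAPBP, which did not pass there with all 6 libraries, as examples of each. The sequences run 5′ to 3′ on the strand of the gene, and capitals mark letters of 4 searched motifs. These were TGACG, the core of the CREB/ATF site in the X2 box, ATTGG, the reverse complement of the CCAAT core bound by NF-Y in the Y box, GAAANNGAA, the repeat bound by interferon regulatory factors, and GGGGATTCC, an NF-kB site, each on both strands.
HLA-B, chr6:31357180-31357429, minus strand: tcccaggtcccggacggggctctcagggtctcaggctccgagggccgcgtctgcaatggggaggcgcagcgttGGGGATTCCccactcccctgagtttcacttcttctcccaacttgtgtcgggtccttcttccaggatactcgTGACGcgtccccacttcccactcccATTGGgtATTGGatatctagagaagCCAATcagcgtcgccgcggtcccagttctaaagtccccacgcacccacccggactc
B2M, chr15:44711267-44711516, plus strand: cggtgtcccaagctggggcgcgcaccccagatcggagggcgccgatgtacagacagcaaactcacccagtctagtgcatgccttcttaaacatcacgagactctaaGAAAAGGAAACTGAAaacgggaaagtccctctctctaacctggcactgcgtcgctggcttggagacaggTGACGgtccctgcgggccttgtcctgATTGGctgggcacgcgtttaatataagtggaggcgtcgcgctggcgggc
TAP1, chr6:32853705-32853954, minus strand: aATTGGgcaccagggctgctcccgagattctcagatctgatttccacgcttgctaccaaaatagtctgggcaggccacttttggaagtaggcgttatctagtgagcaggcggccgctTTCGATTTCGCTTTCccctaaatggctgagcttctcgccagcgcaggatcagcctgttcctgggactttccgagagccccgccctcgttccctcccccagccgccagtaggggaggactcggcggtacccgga
TAP2, chr6:32838740-32838989, minus strand: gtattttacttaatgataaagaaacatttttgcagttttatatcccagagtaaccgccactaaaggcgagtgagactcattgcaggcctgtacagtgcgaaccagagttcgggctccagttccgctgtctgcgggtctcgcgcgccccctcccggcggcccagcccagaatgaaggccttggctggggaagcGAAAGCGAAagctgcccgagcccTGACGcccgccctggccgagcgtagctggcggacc
TAPBP, chr6:33314079-33314328, minus strand: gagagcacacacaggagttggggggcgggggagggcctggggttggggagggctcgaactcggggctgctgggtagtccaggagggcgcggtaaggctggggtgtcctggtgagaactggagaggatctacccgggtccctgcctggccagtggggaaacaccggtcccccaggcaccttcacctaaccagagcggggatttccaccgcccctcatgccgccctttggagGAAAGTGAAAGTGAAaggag
TGACG was found in the windows of HLA-B, HLA-C, B2M and TAP2, and in 24.6% of the 35116 windows of the table. ATTGG was found in the windows of HLA-B, HLA-C, HLA-F, B2M and TAP1, and in 34.6% of all windows. GAAANNGAA was found in the windows of HLA-F, B2M, TAP1, TAP2 and TAPBP, and in 8.11% of all windows, with matches that overlap each other in B2M, TAP1 and TAPBP. GGGGATTCC was found in the window of HLA-B, 177 bases before the start, and in 0.285% of all windows. A second RefSeq start of TAP1 had a window with none of the 4 motifs. A match describes letters in the reference and not binding in these cells.

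The heavy chains are folded and loaded with help from ER lectins and proteases. Of 10 loading partners and trimming genes, 3 rose, 2 fell and 5 did not pass in LP-1, with a median of -0.11, while none rose, 4 fell and 6 did not pass in U266, with a median of -0.10. Without the third LP-1 DMSO library 3 rose and 4 fell, and without the third U266 DHA library none rose and 2 fell. Over all genes tested, 20.0% rose and 20.2% fell in LP-1, and 21.1% rose and 19.6% fell in U266. ERAP2, which trims peptides to class I length, had 8.85, 9.09 and 9.52 FPKM with DHA in LP-1, against 16.7, 17.8 and 16.4 FPKM with DMSO. The groups were separate, and ERAP2 fell by 0.83 in LP-1 (limma adjusted p = 0.000569) and by 0.21 in U266 (limma adjusted p = 0.0404). UGGT1, which marks misfolded glycoproteins for another round of folding, rose by 0.82 in LP-1 (limma adjusted p = 0.0213) and fell by 0.22 in U266 (limma adjusted p = 0.00391). The lectin chaperone CANX rose by 0.50 in LP-1 (limma adjusted p = 0.0324), and TAPBPL, a tapasin relative that edits peptides, fell by 0.36 (limma adjusted p = 0.033). CALR, the chaperone that binds the heavy chain in the loading complex, fell by 0.72 in U266 (limma adjusted p = 2.65e-06) and had a change of -0.12 in LP-1 that did not pass.

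The immunoproteasome replaces the catalytic subunits of the standard proteasome and makes peptides that suit class I grooves, and 2 of its genes lie beside TAP1 and TAP2. Of its 3 subunits and the 2 subunits of the activator PA28, 3 fell and none rose in each line, with a median of -0.76 in LP-1 and -0.20 in U266. Without the third LP-1 DMSO library 3 fell, with a median of -0.51, and without the third U266 DHA library 2 fell. Over all genes tested with all libraries, 20.2% fell and 20.0% rose in LP-1, and 19.6% fell and 21.1% rose in U266. PSMB8 had 12.8, 12.7 and 14.1 FPKM with DHA in LP-1, against 35.0, 27.4 and 55.9 FPKM with DMSO, and 33.3, 29.2 and 31.4 FPKM with DHA in U266, against 48.6, 54.0 and 49.1 FPKM with DMSO. It was lower in every DHA library of both lines, by 1.46 in LP-1 (limma adjusted p = 0.00503) and 0.68 in U266 (limma adjusted p = 1.92e-05), and the changes differed (-0.78, limma adjusted p = 0.0367).

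PSMB9 had 5.22, 5.63 and 5.40 FPKM with DHA in LP-1, against 13.5, 12.3 and 21.9 FPKM with DMSO, and 19.0, 19.6 and 16.5 FPKM with DHA in U266, against 20.8, 18.8 and 20.3 FPKM with DMSO. It fell by 1.36 in LP-1 (limma adjusted p = 0.0034), while the U266 groups overlapped (-0.12, limma adjusted p = 0.217), and the changes differed by -1.24 (limma adjusted p = 0.00153). The PA28 subunit PSME1 fell by 0.76 in LP-1 (limma adjusted p = 0.0295) and by 0.18 in U266 (limma adjusted p = 0.0237). PSME2 fell by 0.29 in U266 (limma adjusted p = 0.00124) and had a change of -0.18 in LP-1 that did not pass. PSMB10 had changes of -0.35 in LP-1 and -0.20 in U266 that did not pass. The standard subunits PSMB5, PSMB6 and PSMB7 passed in neither line, with medians of 0.10 and -0.06, but 2 of the 3 rose in LP-1 without the third DMSO library. Of all genes tested without that library, 3488 of 12053 rose. Of 6 cytosolic peptidases, which destroy or shorten peptides, 1 rose in LP-1 and none fell, while 2 rose and 3 fell in U266. Without the third DMSO library 2 rose and 1 fell in LP-1, and the U266 counts were the same without the third DHA library. The shares over all genes, with all libraries, were 20.0% higher and 20.2% lower in LP-1, and 21.1% higher and 19.6% lower in U266. With all libraries NRDC rose in both lines, by 0.48 in LP-1 and 0.15 in U266.

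Of 16 genes for factors that bind or silence class I promoters, 4 rose and 3 fell in LP-1, and 5 rose and 3 fell in U266. Those counts are close to the shares over all genes, of 20.0% and 20.2% in LP-1 and 21.1% and 19.6% in U266. Without the third LP-1 DMSO library 6 rose and 5 fell, and without the third U266 DHA library 6 rose and 2 fell. More of all genes passed without that LP-1 library too, with 3488 higher and 3257 lower of 12053 tested. Among the NF-Y subunits NFYC rose by 0.65 in LP-1 (limma adjusted p = 0.00588) and NFYB fell by 0.38 (limma adjusted p = 0.045), while NFYA fell by 0.47 in U266 (limma adjusted p = 0.00109). NFYA in LP-1 and NFYB and NFYC in U266 did not pass, at -0.21, 0.04 and 0.12. Of the RFX complex, RFXANK fell by 0.73 in LP-1 (limma adjusted p = 0.0159) and RFXAP rose by 0.41 (limma adjusted p = 0.0114). Neither passed in U266, at -0.12 and 0.16, and RFX5 passed in neither line, at -0.24 in LP-1 and -0.09 in U266.

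IRF1 and IRF2 each changed in the same direction in both lines. IRF1, which activates class I genes, rose by 0.41 in LP-1 (limma adjusted p = 0.013) and by 0.48 in U266 (limma adjusted p = 0.000981). IRF2 fell by 0.43 in LP-1 (limma adjusted p = 0.0137) and by 0.42 in U266 (limma adjusted p = 0.00349). EZH2, the Polycomb methyltransferase that can silence class I genes, rose by 0.61 in LP-1 (limma adjusted p = 0.00685) and by 0.44 in U266 (limma adjusted p = 9.66e-05). NFKB1 rose by 0.20 in U266 (limma adjusted p = 0.0405) and did not pass in LP-1 at 0.39, and RELA did not pass, at 0.42 in LP-1 and 0.13 in U266.

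Of 20 interferon-stimulated genes outside class I, 14 were tested in U266, where 10 rose and 3 fell. Of those 14, IFI27, IFIT3, IFITM1 and PARP9 reached 1 FPKM in DHA libraries only, so they had to be higher with DHA, and of the other 10 tested 6 rose and 3 fell. The other 6 genes of the list did not reach 1 FPKM in enough libraries, so the count describes the genes kept and not the list. Only 6 were tested in LP-1, where 1 rose and 2 fell, against 2 and 2 of 5 without the third DMSO library. Over all genes tested, 21.1% rose and 19.6% fell in U266, and 20.0% rose and 20.2% fell in LP-1. ISG15, a ubiquitin-like protein, rose by 2.72 (limma adjusted p = 9.41e-06), and MX1, an antiviral GTPase, rose by 2.52 in U266 (limma adjusted p = 1.08e-09). MX1 was listed at 0 in all 6 LP-1 libraries. ISG15 had 0.559, 1.75 and 1.76 FPKM with DMSO in U266, and USP18 had 0.989, 1.33 and 1.13 FPKM. Both therefore also needed their DHA libraries to pass the filter there. Both are among the 6 that rose, so that count is not free of the filter either. Without the third DHA library of U266, 10 of the 20 genes were tested, of which 6 rose and 3 fell. Of the class I genes in U266, HLA-B, HLA-C, HLA-E, HLA-F, TAP1, TAP2 and NLRC5 did not pass, and B2M and TAPBP fell. A link between the interferon-stimulated genes and the class I genes was not tested.

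BST2, a surface antiviral protein, went down in both lines, by 0.98 in LP-1 (limma adjusted p = 0.0136) and 0.37 in U266 (limma adjusted p = 0.00101). IFI6 fell by 1.33 in LP-1 (limma adjusted p = 0.00536) and rose by 1.19 in U266 (limma adjusted p = 2.1e-05), while OAS1 fell by 0.28 in U266 (limma adjusted p = 0.000668). The 1 gene of the list that rose in LP-1 was XAF1, at 1.20, but none of its DMSO libraries reached 1 FPKM, so it was tested only through the DHA libraries and had to be higher there. Of 9 interferon receptor and kinase genes, 8 were tested in LP-1, where 2 rose and 1 fell, and 9 in U266, where 2 rose and 3 fell. Leaving out the third LP-1 DMSO library, 2 rose and 2 fell, and without the third U266 DHA library 3 rose and 3 fell. The shares over all genes tested were 20.0% higher and 20.2% lower in LP-1, and 21.1% higher and 19.6% lower in U266. With all libraries the counts of this list were near those shares. IFNGR2, a chain of the interferon gamma receptor, fell by 0.74 in LP-1 (limma adjusted p = 0.00375) and by 0.48 in U266 (limma adjusted p = 0.000973). IRF9, the DNA-binding part of the type I interferon complex, rose by 0.60 in LP-1 (limma adjusted p = 0.00637) and 0.77 in U266 (limma adjusted p = 0.00244). With a pseudocount of 0.1 these values were 0.997 and 1.22. IRF9 averaged 0.8867 FPKM with DMSO in LP-1 and 0.9632 FPKM in U266. In both lines it passed the filter of 1 FPKM only with its higher DHA libraries counted. It is among the 2 genes of its list that rose in each line, so those counts are not free of the filter.

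**Figure D4:**
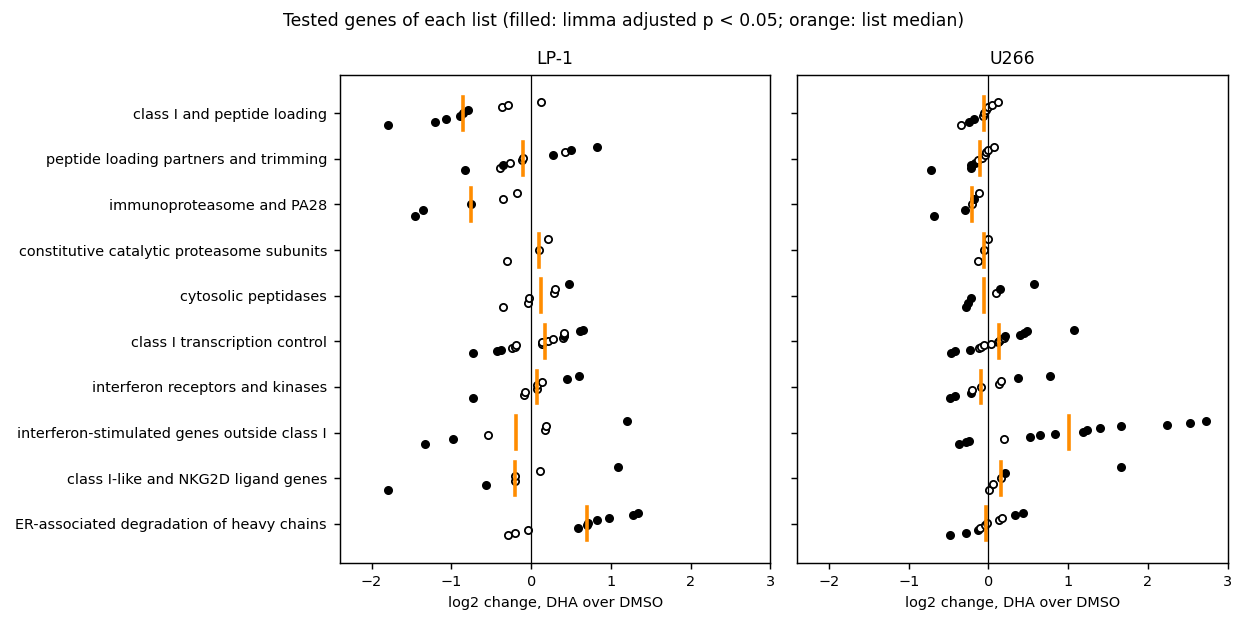
Changes with DHA over DMSO, on the log2(FPKM + 1) scale, of the tested genes of each list, LP-1 on the left and U266 on the right; each point is a gene, filled at a limma adjusted p under 0.05, and the orange line is the list median. The class I genes have a median of -0.86 in LP-1 and -0.05 in U266. Of the interferon-stimulated genes 14 of 20 were tested in U266, and 4 of them reached 1 FPKM in DHA libraries only, so their median describes the genes kept.

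Class I-like proteins and the stress ligands of the NKG2D receptor share the class I fold. Of 10 such genes, 6 were tested in LP-1, where 1 rose and 2 fell, and 5 in U266, where 2 rose and none fell. Without the third LP-1 DMSO library 1 rose and 4 fell, and the U266 counts were the same without the third DHA library. More of all genes also passed without that LP-1 library, with 3488 higher and 3257 lower of 12053 tested. The shares over all genes tested were 20.0% higher and 20.2% lower in LP-1, and 21.1% higher and 19.6% lower in U266. FCGRT, the heavy chain of the neonatal Fc receptor, which also pairs with B2M, had 2.34, 2.31 and 2.38 FPKM with DHA in LP-1, against 10.2, 7.89 and 14.7 FPKM with DMSO. The DHA and DMSO ranges did not meet, and FCGRT fell by 1.80 (limma adjusted p = 0.00123). In U266 it had 2.48, 2.95 and 4.21 FPKM with DHA, against 2.85, 3.01 and 3.60 FPKM with DMSO, which overlapped. ULBP1, an NKG2D ligand, had 2.89, 2.53 and 2.26 FPKM with DHA in LP-1, against 0.83, 0.65 and 0.55 FPKM with DMSO, and 4.59, 4.75 and 6.62 FPKM with DHA in U266, against 0.972, 1.19 and 0.79 FPKM with DMSO. It rose by 1.66 in U266 (limma adjusted p = 1.46e-05), where it passed the filter of 1 FPKM only with its higher DHA libraries counted. It is also the 1 gene counted as higher in LP-1, at 1.09, but no DMSO library there reached 1 FPKM, so it was tested only through the DHA libraries and had to be higher. ULBP3 fell by 0.56 in LP-1 (limma adjusted p = 0.0191), or by 0.91 with a pseudocount of 0.1, and MICB rose by 0.21 in U266 (limma adjusted p = 0.0111).

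Heavy chains that fail to load are sent back to the cytosol for degradation. Of 10 genes of that route, 7 rose and none fell in LP-1, with a median of 0.70, whereas 2 rose and 3 fell in U266, with a median of -0.03. The counts were 7 and 0 without the third LP-1 DMSO library, and 2 and 2 without the third U266 DHA library. Over all genes tested, 20.0% rose and 20.2% fell in LP-1, and 21.1% rose and 19.6% fell in U266. The U266 counts of this list were near those shares. SEL1L, the adaptor of the HRD1 ligase, had 72.3, 72.1 and 74.2 FPKM with DHA in LP-1, against 29.2, 31.7 and 23.9 FPKM with DMSO. It rose by 1.34 in LP-1 (limma adjusted p = 0.000481) and by 0.34 in U266 (limma adjusted p = 0.00059). EDEM1, which draws misfolded glycoproteins out of the folding cycle, rose by 1.28 in LP-1 and 0.43 in U266 (limma adjusted p = 0.000116 and 9e-05). SYVN1, which is HRD1, rose by 0.97 in LP-1 and fell by 0.29 in U266, and the ubiquitin-conjugating enzyme UBE2J1 rose by 0.82 in LP-1 and fell by 0.49 in U266. The difference between the lines passed for 8 of these 10 genes, of which 7 were higher and 1 lower in LP-1. Over all genes tested for it, 18.5% passed as higher and 16.0% as lower in LP-1.

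Several of the smaller pathway calls were lost under at least 1 alternative. In LP-1 the highest limma adjusted p over the alternatives was 0.103 for CANX, 0.123 for TAPBPL, 0.0739 for UGGT1, 0.095 for PSME1, 0.146 for NFYB, 0.0638 for RFXANK, 0.057 for RFXAP, 0.0626 for IRF1, 0.143 for IRF2, 0.0544 for BST2, 0.0581 for NRDC and 0.072 for ULBP3. In U266 it was 0.142 for ERAP2, 0.297 for NFKB1, 0.0747 for PSME1, 0.0578 for IRF9, 0.571 for NRDC and 0.321 for MICB. PSMB8 in both lines, PSMB9, ERAP2 and FCGRT in LP-1 and ULBP1 and UGGT1 in U266 passed under every alternative in which they were tested, the 2-fold minimum aside. For ULBP1 the limit given above holds, that the filter kept it in U266 only with its higher DHA libraries counted.

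Genes with patterns like those of HLA-B and B2M were sought among 5425 genes by the lower of the Pearson correlations over the 6 libraries of each line. These values describe 6 libraries per line, 3 with DHA and 3 with DMSO, and carry no test. For B2M they were PTTG1, at 0.993 in LP-1 and 0.994 in U266, SRSF2, BST2, XBP1 and SLC39A8, the last at 0.997 in LP-1 and 0.985 in U266. For HLA-B they were RPL32, at 0.978 in LP-1 and 0.968 in U266, TIMM17B, FAM3A, NUCB2 and CISD3, the last at 0.943 in LP-1 and 0.911 in U266. XBP1, the plasma cell factor that drives secretory capacity, had 317, 328 and 348 FPKM with DHA in LP-1, against 483, 428 and 598 FPKM with DMSO. Like B2M, it was lower in every DHA library and highest in the third DMSO library.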

How the data were processed

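RNA-seq libraries of LP-1 and U266 with DHA or DMSO were prepared by SMARTER mRNA chemistry from total RNA, per the labels' protocols. The authors deposited FPKM values, with a separate table for each line; the LP-1 table is keyed by Ensembl identifier and the U266 table by gene symbol. The submitters' processing notes name GRCm38 and mm10, which are mouse builds, whereas both tables hold human genes, and no source used here gives the aligner, the counting tool or the annotation. Identifiers were matched to GENCODE release 29 (GRCh38), for 58254 of 61806 LP-1 rows and, with RefSeq synonyms, 19094 of 19130 U266 rows. Reads in genes were recovered from the steps between low values: 91.1 to 91.3% of genes per U266 library were whole to within 0.001 read, and 91.7 to 93.5% of low LP-1 values lay within 0.1 read. For a transcript of 2 kb, 3 reads are 0.0857 to 0.112 FPKM in LP-1 and 0.0687 to 0.145 FPKM in U266, which covers counting error only. An exact 0 can also be a failed estimate.

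Each line was fitted alone with limma 3.58.1 in R 4.3.3 on log2(FPKM + 1), with a variance trend, two-sided, for genes at 1 FPKM or more in at least 3 of 6 libraries, at an adjusted p threshold of 0.05. There were 12514 genes in LP-1, 10422 in U266 and 8933 in the interaction fit of all 12 libraries. The scripts were tested on simulated data. The 9 genes, the 9 pathway lists and the markers were chosen with earlier results of these data known, and a list is described by counts and medians with no test of its own. Named were all 9 genes, up to 2 called genes with the largest change per list, line and direction, 11 transcription control genes (1 of which is not reported here), the 5 immunoproteasome and PA28 genes, and the 5 genes most like HLA-B and B2M. CALR, UGGT1 and others are given for the second line whatever their result there. CD38, MZB1, SLAMF7, IRF4, PRDM1, SDC1 and XBP1 were singled out after their values were seen. So was the filter status of XAF1, ULBP1, IRF9, ISG15, USP18, IFI27, IFIT3, IFITM1 and PARP9. Same-numbered libraries did not deviate together (correlations of -0.0832 to 0.183), so no pairing was used.

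Alternatives in scaling were quantile normalization, TMM-style factors with trims of 30% and 5%, and rescaling with immunoglobulin and mitochondrially encoded genes left out. Others were 0.1 as pseudocount, all genes unfiltered, only genes that average 5 FPKM or more, no variance trend, a 2-fold minimum, a replicate block, each library left out and, added after seeing the data, voom on the recovered reads. Python 3.11.15 with pandas 2.3.3 and numpy 2.4.6 was used for the summaries.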

Additional observations from a re-analysis of the deposited data

Results flagged for a closer look

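Of the 9 class I genes, 6 changed differently with DHA in the 2 lines by a test of the difference itself, the LP-1 change minus the U266 change in a limma fit of all 12 libraries. Of the 8933 genes tested, 16.0% passed as lower in LP-1, as these 6 did, and 18.5% as higher. The difference was -1.83 for HLA-F, which had 22.3% of its DMSO mean in LP-1 and a U266 change of 0.04 that did not pass. It was -1.20 for HLA-B, -0.83 for HLA-C and -0.82 for HLA-E, none of which passed in U266. B2M differed by -0.82, and it fell in both lines, by 1.07 in LP-1 and 0.24 in U266. TAP1 differed by -0.74, while TAP2, its partner in the transporter, differed by 0.01 and did not pass. All 6 passed under each of the 21 alternatives run for them, except that HLA-F was not tested under the filter of a mean of at least 5 FPKM, which leaves 20; a 2-fold minimum, which was applied to counts, left 2 of the 6. The tables of the lines were made differently, and no source used here gives the DHA concentration of each line, so a line effect, a dose effect and an effect of the table cannot be told apart.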

How the results depend on the processing

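In LP-1, 6 class I genes passed under every alternative but the 2-fold minimum, which left 3, and the omission of single libraries, which gave 6 to 8. In U266 there were 2, with 3 after TMM-style scaling or quantile normalization, 0 at a 2-fold minimum, and 1 to 3 with a library left out. For the difference between the lines there were 6, with 5 of 7 tested at a mean of at least 5 FPKM, 2 at a 2-fold minimum and 6 to 7 with a library left out. In the main fits, 20.2% of all genes tested fell and 20.0% rose in LP-1, and 19.6% fell and 21.1% rose in U266. For the difference, 16.0% were lower and 18.5% higher in LP-1. With a replicate block the counts were 6 in LP-1, 2 in U266 and 6 for the difference, and over all LP-1 genes 2267 rose and 2292 fell, against 2504 and 2523 without it; the libraries share only a number.

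Some values near 0 changed sign, none of them past the threshold under either setting. Quantile normalization gave changes of 0.0548 for HLA-B, 0.0209 for HLA-C, 0.0352 for HLA-E, -0.23 for HLA-F, -0.11 for FCGRT and -0.00716 for NFYB in U266, 0.19 for CALR in LP-1, and differences of -0.00446 for TAP2 and 0.13 for NLRC5. TMM-style scaling gave -0.00823 for HLA-F, -0.0559 for FCGRT and -0.0313 for NFYB in U266 and a difference of 0.0722 for NLRC5. Rescaling gave 0.0289 for CALR, 0.0421 for IFNAR1 and 0.11 for THOP1 in LP-1 and differences of 0.0195 for TAPBP and 0.0905 for NLRC5. Voom gave 0.00119 for HLA-B in U266 and -0.0156 for the TAP2 difference, and a pseudocount of 0.1 gave -0.000601 for FCGRT in U266. The cause was not tested.

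Over the omissions of single libraries, the change ran from -0.0711 to 0.28 for TAP2, -0.0336 to 0.14 for IFNGR1, -0.33 to 0.0355 for PSME2 and -0.0778 to 0.0136 for THOP1 in LP-1. It ran from -0.0763 to 0.032 for HLA-B, -0.0153 to 0.14 for HLA-F, -0.16 to 0.13 for FCGRT and -0.18 to 0.11 for TAPBPL in U266. The difference between the lines ran from -0.18 to 0.17 for TAP2, -0.51 to 0.0932 for TAPBP and -0.22 to 0.20 for NLRC5.

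Depth limits HLA-F in U266 most, at 90 to 176 reads per library. Summing several rows of a symbol gave no value, since each symbol had 1 row. Values at a single library's omission rest on 2 libraries in one group, whose spread is assumed to be like that of the other.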
